A study of Mus musculus with 10 samples.

Results

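Cd34, Muc13, Adgrg3, Afap1l1 and Rab44 encode surface proteins, a cytoskeletal adaptor and a vesicle regulator whose transcripts were several times more abundant in nonclassical monocytes lacking LAIR1. They are 5 of the 52636 genes in the count table and 5 of the 13469 abundant enough to test. They were picked by name because they stood strongly higher in LAIR1KO, so the difference between the genotypes is what chose them and is given here as a description, with no test. What the choice did not use is how the 5 genes varied among libraries of the same genotype, their order per exon length within a genotype, and how their families behaved.

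The libraries came from the bone marrow of mice, from which nonclassical monocytes were sorted to a stated purity of 98%, with 5000 to 10000 cells collected per preparation for low-input RNA sequencing. There were 5 libraries of genotype LAIR1+/+ (WT) and 5 of genotype LAIR1-/- (LAIR1KO), and both groups were untreated. LAIR1 is a collagen-binding receptor that restrains leukocytes, and the series concerns its part in monocyte homeostasis. The labels give neither age nor sex, nor how the LAIR1-/- allele was made. They do not state that each library is a separate animal. P-values therefore rest on the variation of these libraries, which may be technical.

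Nonclassical monocytes are the end stage of a lineage that starts from dividing marrow progenitors and passes through classical monocytes, and they patrol the walls of small vessels. CD34 is a heavily glycosylated sialomucin used as a surface marker of blood progenitors and of vascular endothelium, and its transcript is normally lost as myeloid cells mature. MUC13 is a transmembrane mucin of gut epithelium that is also carried by mouse haematopoietic progenitors. ADGRG3 (GPR97) is an adhesion G protein-coupled receptor of leukocytes. AFAP1L1 is an adaptor of the actin filament associated protein family and binds actin and cortactin. RAB44 is an atypically large Rab GTPase with a Rab domain and EF hands, and in mice it bears on granule release by mast cells.

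Promoter sequence is shown first, so that genes chosen for the same difference can be compared at the point where transcription begins. RefSeq windows on GRCm38.p6, from 250 bases before to 50 bases after a start site, were matched for 3 of the 5 genes, namely Cd34, Muc13 and Adgrg3. They lie on the plus strand at chr1:194938571-194938870 for Cd34, at chr16:33793787-33794086 for the first of 2 Muc13 starts, and at chr8:95017442-95017741 for Adgrg3. Capitals mark GGAA on either strand (TTCC when read on the plus strand), the core of the site bound by ETS factors, the family of the myeloid regulator PU.1 and of Erg.
Cd34: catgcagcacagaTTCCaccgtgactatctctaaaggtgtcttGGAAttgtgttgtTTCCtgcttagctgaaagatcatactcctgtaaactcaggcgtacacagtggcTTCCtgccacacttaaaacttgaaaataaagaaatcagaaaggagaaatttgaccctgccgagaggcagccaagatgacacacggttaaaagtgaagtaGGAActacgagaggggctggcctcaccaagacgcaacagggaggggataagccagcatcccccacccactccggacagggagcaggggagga
Muc13: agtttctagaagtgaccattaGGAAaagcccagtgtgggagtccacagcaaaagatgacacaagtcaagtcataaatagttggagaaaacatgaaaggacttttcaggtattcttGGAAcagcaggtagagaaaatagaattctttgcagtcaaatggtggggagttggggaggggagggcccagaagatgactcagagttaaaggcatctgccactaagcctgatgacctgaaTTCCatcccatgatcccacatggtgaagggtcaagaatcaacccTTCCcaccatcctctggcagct
Adgrg3: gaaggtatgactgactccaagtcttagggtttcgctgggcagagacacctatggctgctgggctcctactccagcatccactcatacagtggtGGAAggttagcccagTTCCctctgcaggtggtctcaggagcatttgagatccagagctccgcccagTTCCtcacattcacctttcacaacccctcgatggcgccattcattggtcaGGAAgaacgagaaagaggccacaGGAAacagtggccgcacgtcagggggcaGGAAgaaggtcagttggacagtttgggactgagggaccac
The core occurred 5 times in the Cd34 window and 6 times in that of Adgrg3. It occurred 4 times in the first Muc13 window and 2 times in the second, which is not printed. It is a common word: 96% of 32851 windows of the same length held it at least once, and 28.6% held it 5 or more times. The longer form GGAAGT, held by 23.8% of all windows, had no match in these 3 or in the second Muc13 window.

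Other short motifs, searched on both strands with overlapping matches counted, were unevenly shared. The word AACNG, the core of MYB sites, matched 2 times in the Cd34 window and 5 times in that of Adgrg3. It matched 1 time in the first Muc13 window and 3 times in the second, and 80.3% of all windows held it. The word GATAA, the core of GATA sites, was held by 25.4% of all windows. It matched 1 time each in the Cd34 and second Muc13 windows and 0 times in those of Adgrg3 and the first Muc13 start. TGTGGT, the core of RUNX sites (16.8% of windows), CACGTG (7.15%), the E-box bound by MYC, and TATAAA (13.6%) had no match in the windows printed here. The windows had 50% GC for Cd34, 46.3% for Muc13 and 55.7% for Adgrg3, against a median of 52.7%. A match describes letters only; no binding was measured.

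The libraries held 12106209 to 15356924 counts. Lair1 stood at 327.6 to 399.6 CPM (read count scaled to a common library size, here with TMM) in WT and at 0 to 0.673 CPM in LAIR1KO, as the labels call for. The sorted cell type was present: Csf1r, the receptor for the growth factor of monocytes, had a mean of 5461 CPM (WT) and 4738 CPM (LAIR1KO), and the summed level of 20 nonclassical markers was 21660 to 25680 CPM in WT and 16735 to 23785 CPM in LAIR1KO. On the leading principal component (29.1% of the variance) LAIR1KO replicates 4 and 5 lay farthest from WT, at 43.4 and 43.0, and LAIR1KO replicate 3 lay nearest to it, at 9.17, against -38.9 to -16.6 for WT. Across all genes tested, 6.79% were called, 5.11% higher and 1.68% lower in LAIR1KO (edgeR quasi-likelihood test, Benjamini-Hochberg adjusted p under 0.05), and the median log2 fold change was -0.0018.

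Cd34 (ENSMUSG00000016494, GRCm38 chr1:194938819-194961279, plus strand) was read deeply in both genotypes. The WT libraries, replicates 1 to 5, held 27.0, 67.8, 26.0, 43.1 and 43.3 CPM. The LAIR1KO libraries held 187.1, 219.0, 132.8, 265.4 and 316.7 CPM in the same order. Every LAIR1KO library lay above every WT library, and the lowest LAIR1KO library, replicate 3, was 1.96 times the highest WT library, replicate 2. The mean was 41.4 ± 16.9 CPM over WT libraries and 224.2 ± 70.7 over LAIR1KO libraries (SD, n = 5 each), a log2 fold change of 2.44 ± 0.28 (SE) or 5.41-fold. These are bulk libraries, so more cells of a type that carries Cd34 and more Cd34 RNA per cell cannot be told apart, which holds for every gene below.

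LAIR1KO replicates 4 and 5 had 1.62 times the mean Cd34 level of replicates 1 to 3. Replicates 1 to 3 alone were 4.33 times the WT mean. Cd34 counts were 323 to 805 per library in WT and 2003 to 4371 in LAIR1KO. An overlapping antisense gene, Gm16897, covers 148 bases or 2.03% of the Cd34 exons and had a mean of 17.1 counts beside 1863 for Cd34. The strand setting of the counting is not given in the sources used here, so reads within that overlap could not be assigned to one gene.

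Muc13 (ENSMUSG00000022824, GRCm38 chr16:33794037-33819934, plus strand) was the most uneven of the 5 among WT libraries. The WT libraries held 0.251, 5.56, 1.12, 2.55 and 4.65 CPM, from 3, 66, 15, 37 and 60 counts. The LAIR1KO libraries held 14.0, 19.2, 15.5, 20.6 and 30.9 CPM, from 219 to 427 counts. WT replicate 1 was far below the other WT libraries, LAIR1KO replicate 5 was the highest of all, and the genotypes did not overlap.

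Muc13 averaged 2.82 ± 2.26 CPM over WT libraries and 20.04 ± 6.66 over LAIR1KO libraries (SD, n = 5 each), a log2 fold change of 2.83 ± 0.51 (SE) or 7.09-fold. This was the 12th largest log2 fold change of the genes tested and the least precise of the 5, and its WT level rests on 181 counts over 5 libraries. Another gene, Gm15657, overlaps 184 bases or 6.06% of the Muc13 exons and had a mean of 3.7 counts beside 161 for Muc13. On the log2 CPM scale the SD among WT libraries was 1.58 for Muc13 and 0.24 to 0.57 for the other 4 genes. Among LAIR1KO libraries the SD was 0.44 for Muc13 and 0.39 to 0.52 for the others.

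Adgrg3 (ENSMUSG00000060470, GRCm38 chr8:95017692-95045250, plus strand) had WT values of 23.0, 22.8, 12.7, 19.5 and 31.3 CPM. Its LAIR1KO values were 96.6, 108.3, 59.1, 116.1 and 118.1 CPM. Replicate 3 was the lowest library in each genotype, and the lowest LAIR1KO library was 1.89 times the highest WT library. Its mean was 21.9 ± 6.71 CPM in WT against 99.6 ± 24.2 in LAIR1KO (SD, n = 5 each), a log2 fold change of 2.19 ± 0.23 (SE) or 4.56-fold.

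Rab44 (ENSMUSG00000064147, GRCm38 chr17:29114145-29148980, plus strand) followed nearly the same course over the libraries. The WT values were 38.3, 34.3, 23.7, 27.4 and 42.4 CPM. The LAIR1KO values were 129.5, 160.3, 82.7, 153.1 and 150.1 CPM. Replicate 3 was again the lowest of each genotype, and no WT library reached the level of a LAIR1KO library. Its mean was 33.2 ± 7.69 CPM in WT against 135.1 ± 31.4 in LAIR1KO (SD, n = 5 each), a log2 fold change of 2.03 ± 0.20 (SE) or 4.07-fold, the smallest of the 5. LAIR1KO replicates 4 and 5 had 1.22 times the Rab44 level of replicates 1 to 3, the smallest such ratio of the 5 genes.

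Afap1l1 (ENSMUSG00000033032, GRCm38 chr18:61730261-61786702, minus strand) was low and even in WT, at 3.85, 3.54, 2.53, 3.86 and 3.41 CPM. Its LAIR1KO libraries held 24.7, 15.3, 11.7, 21.7 and 28.4 CPM. The gap between the genotypes was the widest of the 5, the lowest LAIR1KO library being 3.02 times the highest WT library. Its mean was 3.44 ± 0.54 CPM in WT against 20.4 ± 6.84 in LAIR1KO (SD, n = 5 each), a log2 fold change of 2.56 ± 0.25 (SE) or 5.91-fold. A neighbouring gene, 1500015A07Rik, shares 149 bases or 4.05% of the Afap1l1 exons, with a mean of 138.8 counts beside 168.3 for Afap1l1. Its own level was 9.52 ± 2.82 CPM in WT beside 10.7 ± 2.73 in LAIR1KO (SD, n = 5 each; log2 fold change 0.16 ± 0.23 SE, edgeR adjusted p = 0.734).

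**Figure D1:**
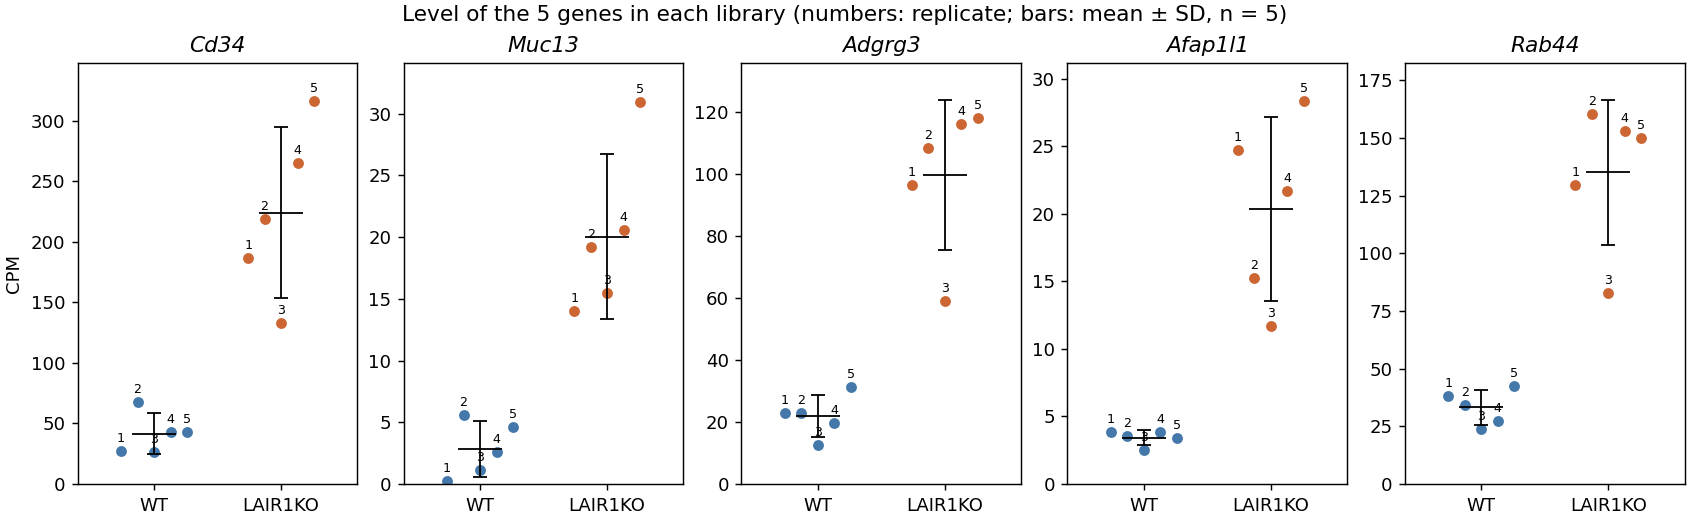
CPM of the 5 genes in each of the 10 libraries, 1 panel per gene on a linear axis from 0, with points numbered by replicate and bars for the genotype mean and SD (n = 5). Each of the 5 genes has every LAIR1KO library above every WT library, and replicate 3 is the lowest LAIR1KO library for 4 of them, Muc13 being the exception.

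All 5 genes thus had 5 of 5 LAIR1KO libraries above all 5 WT libraries, a pattern held by 5.61% of the genes tested, and nothing is read from that count because the choice of genes used it. Genes called with a log2 fold change of 2 or more made up 0.364% of those tested, or 49 genes. By size of log2 fold change the 5 ranked 12th (Muc13), 20th (Afap1l1), 25th (Cd34), 39th (Adgrg3) and 66th (Rab44).

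Per exon length the order of the genes was partly different. In WT the levels, as FPKM (CPM per kilobase of exon), were 6.56 ± 1.52 for Rab44, 5.69 ± 2.32 for Cd34, 3.17 ± 0.97 for Adgrg3, 0.93 ± 0.15 for Afap1l1 and 0.93 ± 0.74 for Muc13 (SD, n = 5). Rab44 and Cd34 overlapped in range and changed places between libraries, with Cd34 the higher in 2 of 5, and the same was true of Afap1l1 and Muc13, with Muc13 the higher in 2 of 5. Rab44 lay above Adgrg3 in every WT library with no overlap of ranges. Cd34 also lay above Adgrg3 in every WT library, but their ranges overlapped.

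In LAIR1KO the order was Cd34 at 30.8 ± 9.70 FPKM, Rab44 at 26.7 ± 6.21, Adgrg3 at 14.4 ± 3.51, Muc13 at 6.60 ± 2.19 and Afap1l1 at 5.53 ± 1.86 (SD, n = 5). Cd34 exceeded Rab44 in 4 of 5 LAIR1KO libraries, yet their ranges overlapped, as did those of Muc13 and Afap1l1. The range of Adgrg3 overlapped with those of Rab44 and Muc13, though it lay below Rab44 and above Muc13 in every LAIR1KO library. Against all genes tested, the Cd34 FPKM was above 51.6% of genes in WT and above 87.0% in LAIR1KO. Rab44 moved from above 54.8% to above 84.7%, and Adgrg3 from above 38.5% to above 73.0%. Muc13 and Afap1l1 stood above 16.7% and 16.8% of genes in WT and above 54.0% and 49.7% in LAIR1KO. The move of each gene between genotypes restates the difference that chose it.

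**Figure D2:**
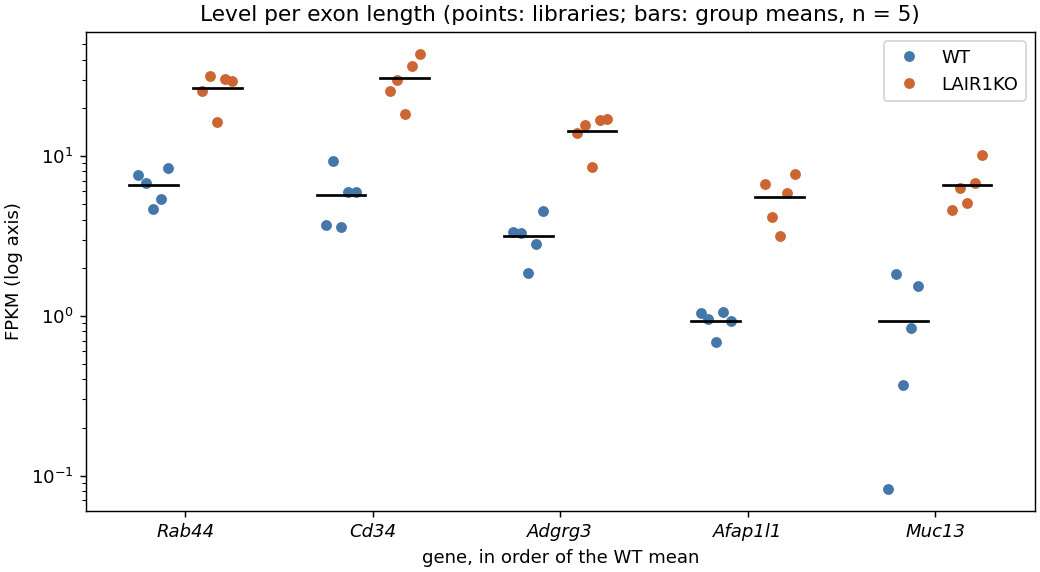
FPKM of the 5 genes per library on a log axis, with bars for the genotype means, in the order of the WT mean. In LAIR1KO, Cd34 (18.2 to 43.4 FPKM) and Rab44 (16.3 to 31.6 FPKM) overlap, and Muc13 (4.61 to 10.2 FPKM) overlaps with Afap1l1 (3.17 to 7.72 FPKM). Adgrg3 (8.555 to 17.1 FPKM) overlaps with Rab44 and with Muc13.

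Within a genotype the 5 genes did not vary as 1 unit. Likeness was measured as Pearson r of log2 CPM after the mean of each genotype was subtracted, over 10 libraries, so that the difference between genotypes adds nothing to it. It is a description, and the points share library depth and scaling. Adgrg3 and Rab44 were the closest pair, at r = 0.95, and Cd34 and Muc13 came next, at r = 0.78. Of 10154 genes compared, Rab44 was the one most like Adgrg3, and Adgrg3 was the third most like Rab44. Muc13 was only the 207th most like Cd34, and Cd34 the 118th most like Muc13. The log2 ratio of Adgrg3 to Rab44 had an SD of 0.19 among WT libraries and 0.08 among LAIR1KO libraries.

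Cd34 also had r = 0.67 to Adgrg3, 0.58 to Afap1l1 and 0.56 to Rab44. In likeness to Cd34 these genes ranked 500, 873 and 966 of 10154, so many other genes were closer. The r for Afap1l1 was 0.38 without LAIR1KO replicates 4 and 5, and that for Rab44 was 0.33 without WT replicate 2 and LAIR1KO replicate 3. Muc13 had the least in common with the vesicle gene and the adaptor, at r = 0.18 to Rab44 and 0.13 to Afap1l1. The value for Adgrg3 and Rab44 was 0.95 without LAIR1KO replicates 4 and 5 and 0.86 without the 2 libraries farthest from their genotype mean in Adgrg3, which are replicate 3 of each genotype. That for Cd34 and Muc13 was 0.80 and 0.81 under the same steps, where the 2 farthest libraries in Cd34 are WT replicate 2 and LAIR1KO replicate 3. The r of Adgrg3 with Afap1l1, 0.67 over all libraries, became -0.12 without replicate 3 of each genotype, so it rests on those libraries. The r of Afap1l1 with Rab44 went from 0.59 to 0.18 without LAIR1KO replicates 3 and 5. The low r of Muc13 with Rab44 rests on WT replicates 1 and 2, without which it was 0.71, and that of Muc13 with Adgrg3 went from 0.36 to 0.84 by the same step.

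The libraries behind these values can be named. WT replicate 2 was above its genotype mean by 0.80 for Cd34 and 1.47 for Muc13 on the log2 CPM scale. WT replicate 1 deviated by -2.37 for Muc13. LAIR1KO replicate 3 deviated by -0.69 for Cd34, -0.71 for Adgrg3, -0.72 for Afap1l1 and -0.67 for Rab44, and LAIR1KO replicate 5 by 0.56 for Cd34, 0.68 for Muc13 and 0.55 for Afap1l1. WT replicate 2 was also the highest WT library for Kit at 23.7 CPM, Mpo at 915 CPM and the haemoglobin gene Hbb-bs at 710.5 CPM. The part of that library's makeup in the Cd34 and Muc13 values was not tested; without it, their log2 fold changes were 2.68 and 3.21.

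**Figure D3:**
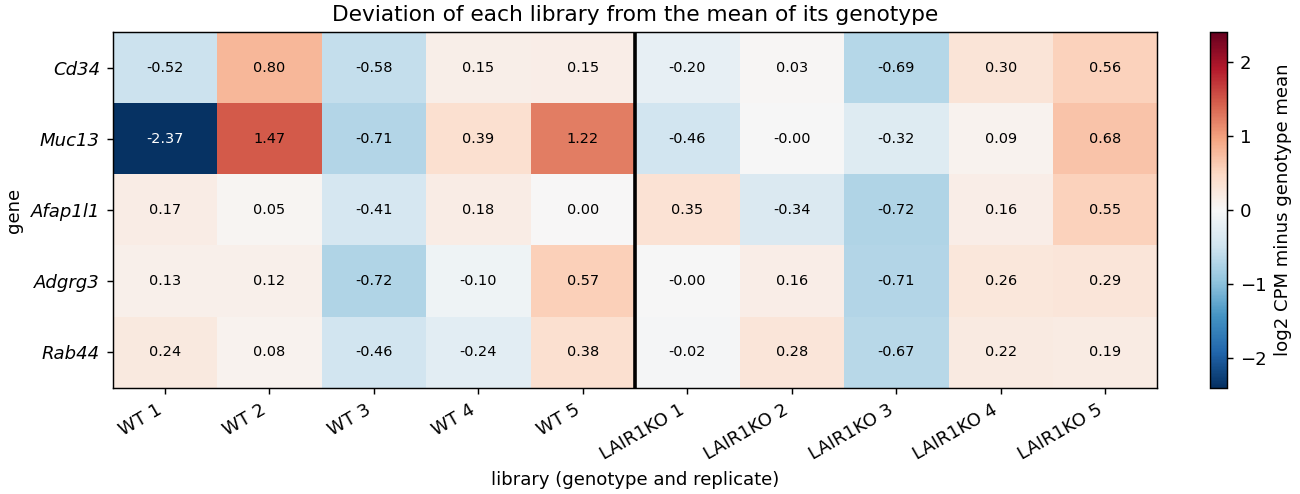
Log2 CPM of each gene minus the mean of its genotype, for each of the 10 libraries, as a colour and a printed value (blue below the mean, red above it). LAIR1KO replicate 3 is low for Cd34, Adgrg3, Afap1l1 and Rab44, and WT replicate 1 is low for Muc13, at -2.37.

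The 3 genes that varied most like each of the 5 differed from gene to gene, apart from Cdc7, which came up for both Adgrg3 and Rab44. Cd34 varied most like Spc25 (r = 0.96), a kinetochore subunit, Adgrg1 (r = 0.96), an adhesion receptor, and Slc16a1 (r = 0.96), the lactate transporter MCT1. Muc13 varied most like Cd27 (r = 0.96), a TNF receptor family member of lymphocytes and progenitors, the phosphatase gene Ptprv (r = 0.94) and Terf2 (r = 0.93), a telomere-binding protein. For Adgrg3 the genes after Rab44 were Cdca3 (r = 0.95), a cell division gene, and Cdc7 (r = 0.94), the kinase that fires replication origins. For Rab44 they were Pmf1 (r = 0.96), a kinetochore gene, Cdc7 (r = 0.96) and Adgrg3.

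Afap1l1 varied most like Exosc3 (r = 0.96), a subunit of the RNA exosome, Mrps5 (r = 0.95), a mitochondrial ribosomal protein, and Ifi27l2a (r = 0.93), an interferon-inducible gene. A high r within genotypes was also found for genes that fell or did not pass the test between them. Ifi27l2a fell from 328.6 to 146.1 CPM in LAIR1KO (log2 fold change -1.17 ± 0.19 SE, edgeR adjusted p = 0.00282). Exosc3 stood at 59.9 and 63.6 CPM (0.09 ± 0.10, adjusted p = 0.668) and Terf2 at 25.5 and 23.9 CPM (-0.09 ± 0.14, adjusted p = 0.762). The r of Terf2 with Muc13 was 0.66 without WT replicates 1 and 2.

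**Figure D4:**
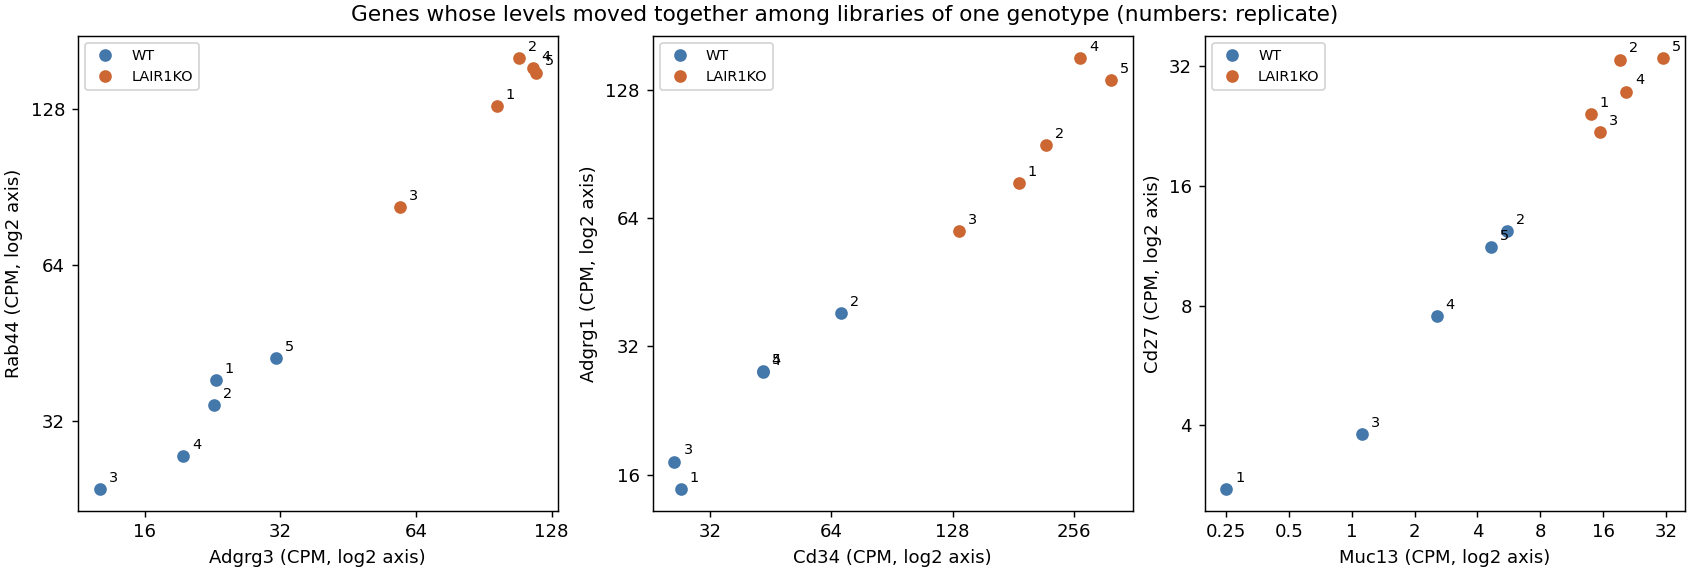
CPM of Rab44 against Adgrg3, Adgrg1 against Cd34, and Cd27 against Muc13 on log2 axes, 1 point per library numbered by replicate, with WT in blue and LAIR1KO in orange. The first 2 pairs run close to a line within each genotype and the third mainly in WT (r = 0.95, 0.96 and 0.96 with genotype means subtracted), with LAIR1KO replicate 3 nearest to WT for Adgrg3 and Cd34.

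Few relatives of the surface mucins were abundant enough to test. Of 22 other sialomucins and mucins, 6 were tested and 1 rose (16.7%, beside 5.11% of all genes tested). This gene was Cd24a, a glycosylated surface protein of immature blood cells. It went from 17.2 ± 3.05 to 30.5 ± 5.90 CPM (SD, n = 5 each; log2 fold change 0.82 ± 0.16 SE, edgeR adjusted p = 0.00937). The call was lost without WT replicates 1 and 4 (adjusted p = 0.0739, the highest of 20 alternatives, which began at 0.000117). The median log2 fold change of the 6 was 0.02. Podxl, the closest paralog of Cd34, had 20 counts over all 10 libraries, and Podxl2, another CD34 family member, had 1 (both named after their values were seen).

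Of 29 other adhesion G protein-coupled receptors, 13 were tested and 1 rose, with a median log2 fold change of 0.18. That is 7.69% of the 13, beside 5.11% called higher among all genes tested. Limma voom called 3 higher, 2 were called higher without WT replicate 2, DESeq2 called 1 higher and 1 lower, and 2 were called lower without LAIR1KO replicate 3. The one that rose was Adgrg1 (GPR56), a receptor of progenitor and cytotoxic cells for which collagen III is a known ligand. Its WT libraries held 14.8, 38.2, 17.2, 27.9 and 28.04 CPM and its LAIR1KO libraries 77.3, 94.8, 59.6, 151.9 and 134.5 CPM, with no overlap. The means were 25.2 ± 9.45 and 103.6 ± 38.7 CPM (SD, n = 5 each; log2 fold change 2.04 ± 0.29 SE, edgeR adjusted p = 0.00165). It was called in all 20 alternatives, with adjusted p from 3.44e-10 to 0.0195. Adgrl4, Adgrg7 and Adgra3, named after their values were seen, had log2 fold changes of 1.98 ± 0.59, 2.15 ± 0.77 and 2.18 ± 1.01 (SE) that did not pass (adjusted p = 0.0665, 0.12 and 0.229). Adgre1, which encodes the macrophage antigen F4/80 and was named after its values were seen, had a log2 fold change of -0.35 (adjusted p = 0.0947).

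Of 60 other Rab GTPases, 44 were tested and 1 rose (2.27%, beside 5.11% of all genes tested). The median log2 fold change of the 44 was -0.16 beside -0.0018 for all genes. The log2 fold change was below 0 for 33 of the 44, and 9 of the 44 had an unadjusted p under 0.05. DESeq2 called 5 lower, and edgeR called 2 lower without LAIR1KO replicate 3. The one that rose was Rab38, a Rab of melanosomes and other lysosome-related organelles, which went from 1.91 ± 0.62 to 6.83 ± 2.97 CPM (SD, n = 5 each; log2 fold change 1.83 ± 0.35 SE, edgeR adjusted p = 0.00774). Its call was lost without LAIR1KO replicates 4 and 5 (adjusted p = 0.0733) and without WT replicates 1 and 4 (adjusted p = 0.0684), within a range of 3.86e-05 to 0.0733 over 20 alternatives. The other large Rabs with EF hands, named after their values were seen, did not pass: Cracr2a had a log2 fold change of 0.47 ± 0.24 (SE, adjusted p = 0.275), and Rasef had 2 counts in all. Of 24 genes of granule docking and exocytosis, the step in which RAB44 is placed in mast cells, 17 were tested and 0 passed in edgeR, with a median of -0.15. Of these, 4 had an unadjusted p under 0.05, DESeq2 called 2 lower, and limma voom called 1 lower. The smallest p belonged to Stx11, a syntaxin of cytotoxic granule release, with a log2 fold change of -0.38 ± 0.11 (SE, adjusted p = 0.056), and Vamp8, an endosomal SNARE, followed at -0.32 (adjusted p = 0.138).

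Around Afap1l1, of 23 actin filament associated and podosome genes 20 were tested and 2 fell (10%, beside 1.68% of all genes tested). The median log2 fold change of the 20 was -0.22. Mmp14, a membrane-bound collagenase, fell from 10.6 ± 5.01 to 2.95 ± 1.79 CPM (SD, n = 5 each; log2 fold change -1.85 ± 0.46 SE, edgeR adjusted p = 0.0306). Gsn, the actin-severing protein gelsolin, fell from 194.9 ± 27.6 to 144.5 ± 14.7 CPM (log2 fold change -0.43 ± 0.11 SE, adjusted p = 0.0399). Mmp14 lost its call in 7 of 20 alternatives (adjusted p up to 0.204) and Gsn in 12 (up to 0.237). DESeq2 called 3 of the 20 lower, edgeR called 5 lower without LAIR1KO replicate 3, and none passed without WT replicate 1, 2 or 4 or LAIR1KO replicate 1 or 4. Afap1, the founding member of the family and named after its values were seen, had a log2 fold change of 0.74 ± 0.26 (SE, adjusted p = 0.115). Its other relative Afap1l2 had 14 counts in all.

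Genes that mark stem and progenitor cells moved in both directions. Of 29 other surface proteins on that list, 23 were tested, 3 rose (13%) and 2 fell (8.7%), with a median log2 fold change of -0.14. Over all genes tested 5.11% rose and 1.68% fell. Kit, the stem cell factor receptor, rose from 11.3 ± 6.98 to 70.1 ± 41.0 CPM (SD, n = 5 each; log2 fold change 2.63 ± 0.43 SE, edgeR adjusted p = 0.00306). LAIR1KO replicates 4 and 5 held 106.9 and 122.3 CPM of Kit, and replicates 1 to 3 held 37.6, 39.6 and 44.4. Cd27 rose from 7.52 ± 4.27 to 28.1 ± 5.28 CPM (1.90 ± 0.34, adjusted p = 0.00561). Flt3, a progenitor and dendritic cell receptor named after its values were seen, was the third.

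The 2 that fell were Ly6a, which encodes the stem cell antigen Sca-1, from 50.1 ± 13.7 to 19.6 ± 2.29 CPM (SD, n = 5 each; log2 fold change -1.35 ± 0.18 SE, edgeR adjusted p = 0.000936), and Cd7, from 10.03 ± 2.22 to 2.33 ± 0.82 CPM (-2.10 ± 0.26, adjusted p = 0.000661). Cd34 and Sca-1 transcripts therefore differed in opposite directions between the genotypes. Kit, Cd27, Ly6a and Cd7 were called in all 20 alternatives, with adjusted p up to 0.0424.

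**Figure D5:**
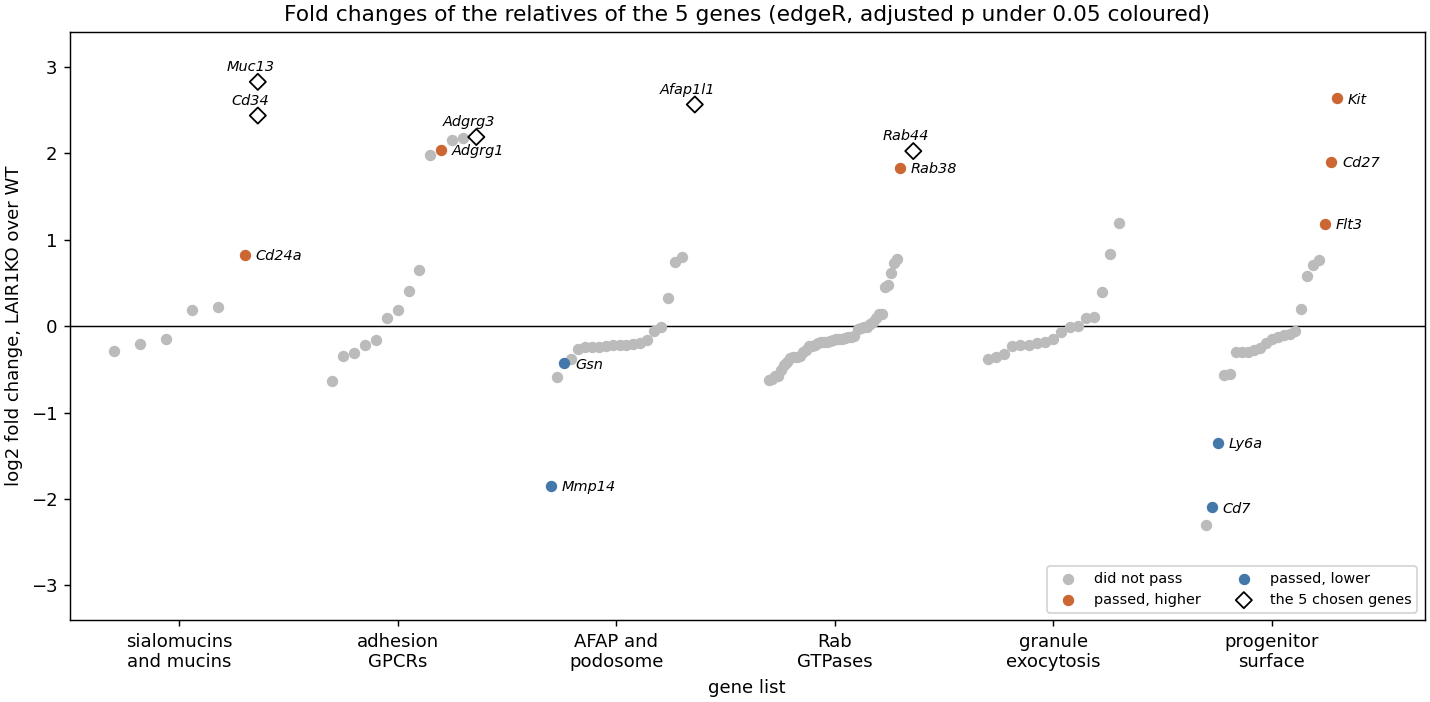
Log2 fold change (LAIR1KO against WT) of the tested genes of 5 family or pathway lists and of the progenitor surface list, 1 point per gene in order of size. Orange and blue points passed the threshold (higher and lower), grey points did not, and open diamonds mark the 5 chosen genes. In each of the mucin, adhesion receptor and Rab families 1 other gene rose, and 2 podosome genes fell. These are 16.7%, 7.69% and 2.27% of the tested family members called higher, and 10% called lower. Among all genes tested 5.11% were called higher and 1.68% lower.

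Genes of primary granules and myeloid precursors moved mostly one way, with 11 of 16 called higher (68.8%) and a median of 1.39. Among all genes tested 5.11% were called higher, and the median was -0.0018. Mpo, the peroxidase of primary granules, rose from 518.1 ± 232.6 to 3401 ± 1143 CPM (SD, n = 5 each; log2 fold change 2.72 ± 0.29 SE, edgeR adjusted p = 0.000348). Ctsg, the granule protease cathepsin G, rose from 44.3 to 240.4 CPM (2.44 ± 0.27), Prtn3, proteinase 3, from 50.9 to 198.7 CPM (1.97 ± 0.24) and Igfbp4 from 35.7 to 124.1 CPM (1.80 ± 0.27). Without LAIR1KO replicates 4 and 5 the count was 8 of 16, and without WT replicates 1 and 4 it was 7. Among 20 progenitor transcription factors 5 rose (25%), with a median of 0.86. They included Myc, from 33.4 to 139.3 CPM (log2 fold change 2.06 ± 0.31 SE, adjusted p = 0.00192), Myb, from 23.8 to 102.2 CPM (2.10 ± 0.32, adjusted p = 0.002), and the ETS factor Erg, from 0.429 to 2.92 CPM (2.76 ± 0.48, adjusted p = 0.00471). These lists were drawn up with results from these libraries known, so their direction is not independent evidence.

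All 24 mitosis genes were called higher, beside 5.11% of all genes tested. Their median log2 fold change was 1.39, beside -0.0018 for all genes. This list was also drawn up with results from these libraries known. The summed level of the 24 genes was 528.9 to 744.4 CPM in WT and 1038 to 1989 CPM in LAIR1KO, lowest there in replicate 3 and highest in replicate 5. Mki67, a marker of dividing cells, rose from 39.5 to 100.4 CPM (n = 5 each; log2 fold change 1.35 ± 0.15 SE, edgeR adjusted p = 0.000461). The count was 19 of 24 without LAIR1KO replicates 4 and 5 and 17 of 24 without WT replicates 1 and 4. The part of dividing cells in the levels of the 5 genes was not tested.

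Of the 20 nonclassical markers 0 were called in edgeR, all 20 had a log2 fold change below 0 (median -0.26), 7 had an unadjusted p under 0.05, DESeq2 called 3 lower and limma voom called 1 lower. The 0 was not stable: edgeR called 6 lower without LAIR1KO replicate 3, 2 without WT replicate 5, 1 without WT replicate 1 and 0 to 2 under the other scalings and filters. Of 12 tested classical monocyte markers 2 rose (16.7%, beside 5.11% of all genes tested). Among them was F13a1, a coagulation factor subunit, which went from 84.6 to 362.4 CPM (log2 fold change 2.10, edgeR adjusted p between 2.24e-17 and 0.00554 over 20 alternatives). Of the 12, 6 had a log2 fold change above 0 and 6 below it, with a median of -0.06. DESeq2 called 2 lower, and edgeR called 1 lower with upper-quartile scaling and with no filter on low counts. Without LAIR1KO replicates 4 and 5, and without WT replicates 1 and 4, 1 of the 12 was called higher. The summed classical markers lay at 1626 to 2155 CPM in WT and 1694 to 1910 CPM in LAIR1KO.

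Other cells that carry these genes were checked by their defining markers. CD34 marks endothelium, and of 15 endothelial markers 6 were tested and 1 rose (16.7%, beside 5.11% of all genes tested). This was Egfl7, which went from 4.09 to 14.5 CPM (log2 fold change 1.83, edgeR adjusted p = 0.0126, and 0.0657 without LAIR1KO replicates 4 and 5). The summed level of the list was 195.9 to 453.7 CPM in WT and 264.0 to 378.8 CPM in LAIR1KO, of which Pecam1, shared with leukocytes, made 298.8 and 271.1 CPM on average, and Cdh5, the endothelial cadherin, did not exceed 0.465 CPM in any library. Tie1, named after its values were seen, went from 0.67 to 2.45 CPM (log2 fold change 1.86 ± 0.81 SE, edgeR adjusted p = 0.201). The log2 fold change was below 0 for 4 of the 6 tested. MUC13 marks gut epithelium, and of 10 epithelial markers 3 were tested and 0 passed in edgeR, with 1 at an unadjusted p under 0.05, 0 called by DESeq2 and 1 called higher by limma voom. Their sum was 7.29 to 16.0 CPM in WT and 8.18 to 19.0 CPM in LAIR1KO, with Krt19, Cldn3 and Tff3 at 0 in every library. Krt18, named after its values were seen, went from 0.83 to 2.86 CPM (log2 fold change 1.78 ± 0.63 SE, edgeR adjusted p = 0.115). The other 2 tested had log2 fold changes below 0.

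Rab44 is known from mast cells, and of 14 mast cell and basophil markers 7 were tested and 0 passed in edgeR, with 4 at an unadjusted p under 0.05, 2 called higher by DESeq2 and 0 by limma voom. Their sum was 11.4 to 92.8 CPM in WT and 40.5 to 89.9 CPM in LAIR1KO, and the mast cell proteases Tpsb2, Tpsab1, Cma1 and Mcpt4 were at 0 in all 10 libraries. Of the 7 tested, 5 had a log2 fold change above 0 and 2 below it, with a median of 0.88. Cpa3 and Mcpt8, both named after their values were seen, went from 1.17 to 4.38 and from 4.12 to 10.9 CPM. Their log2 fold changes were 1.89 ± 0.66 and 1.41 ± 0.60 (SE, edgeR adjusted p = 0.113 and 0.19). Of 13 tested neutrophil markers 0 passed in edgeR, with 2 at an unadjusted p under 0.05 and 0 called by DESeq2 or limma voom, and their sum was 916 to 2459 CPM in WT and 1450 to 2055 CPM in LAIR1KO. Of 11 tested erythroid markers 4 were called lower in LAIR1KO (36.4%, beside 1.68% of all genes tested). The list summed to 99.0 to 1331 CPM in WT, highest in replicate 2, and to 49.0 to 139.6 CPM in LAIR1KO. DESeq2 called 5 of the 11 lower and limma voom called none. In edgeR 0 passed without WT replicate 2, the highest library, or without WT replicate 3 or LAIR1KO replicate 1, 4 or 5, and 1 passed without LAIR1KO replicate 2 or 3. The part of other cells in the levels of the 5 genes was not tested.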

How the data were processed

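Bulk RNA sequencing of sorted nonclassical monocytes was analysed in 10 libraries, 5 WT and 5 LAIR1KO. The authors deposited 1 table of raw read counts per Ensembl gene, with no normalization. The aligner was GSNAP and the build GRCm38.p5, per the submitters' processing notes. For the counting tool, the annotation and the strand setting nothing is given in the sources used here. Columns were assigned by the library identifiers that titles carry, and groups by the genotype label.

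Names, coordinates and exon lengths were those of GENCODE M21 (GRCm38), with a match for 52489 of 52636 identifiers. Libraries held 12106209 to 15356924 counts, and a chi-square of 14.4 to 71 per degree of freedom between replicates showed that none was a copy of another. Muc13 in WT, with 3 to 66 counts per library, was the least precise of the 5 genes.

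In R 4.3.3, edgeR 4.0.16 filtered genes (filterByExpr, minimum count 10, minimum total 15), scaled libraries by TMM and compared the genotypes over all 13469 genes kept by the quasi-likelihood test, two-sided, with Benjamini-Hochberg adjustment and a threshold of 0.05. Log2 fold changes are LAIR1KO minus WT. FPKM is TMM-scaled CPM per kilobase of union exon. Likeness used 10154 genes whose mean log2 CPM was 1 or more. The steps were tested on simulated data. Alternatives were other scalings and filters, the replicate number as a block, left-out libraries, DESeq2 1.42.0 and limma 3.58.1 voom.

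The 5 genes and the 22 gene lists were chosen with earlier results of these data known. Genes named beyond the 5 were, by rule, up to 4 called genes of smallest p per family or pathway list or the 2 of smallest p where none passed, the 3 most like each of the 5 genes, and for other cell types the most abundant marker and up to 2 called genes. Predicted genes were skipped for likeness. A gene that the rule takes is not reported here by name and remains in the counts. The text says where a gene falls outside the rule, and markers at or near 0 were named after their values were seen. Promoter windows came from RefSeq on GRCm38.p6.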

Additional observations from a re-analysis of the deposited data

Results flagged for a closer look

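None of the 5 genes had a library standing apart from its genotype by Dixon's test at the 95% level (gap over range above 0.71 for 5 libraries). The test was run on 60 named genes in 120 groups of libraries and marked 9, where chance marks about 1 group in 20. Of the 9, 6 concern WT replicate 2, which was also the highest WT library for Cd34 and Muc13. In that library Kit stood at 23.7 CPM, against 7.19 to 8.99 in the other WT libraries. Mpo stood at 915 CPM against 336.4 to 501.8, and Prtn3 at 88.5 CPM against 37.3 to 50.3. The haemoglobin genes were also high there, with Hbb-bs at 710.5 CPM (36.6 to 170.4 elsewhere in WT), Hba-a2 at 174 CPM (10.6 to 51.0) and Hba-a1 at 164.6 CPM (12.4 to 45.6). Ppbp, a platelet chemokine, was at 71.3 CPM in WT replicate 5 against 0.893 to 4.02, and at 4.64 CPM in LAIR1KO replicate 2 against 0.398 to 1.17. Nkg7, a granule gene of cytotoxic lymphocytes, was at 46.9 CPM in LAIR1KO replicate 5 against 19.96 to 26.9.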

How the results depend on the processing

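Each of the 5 log2 fold changes stayed positive under all 20 alternatives and moved by less than 1 SD between libraries. On the log2 scale that SD was 0.369 for Rab44 and 1.16 for Muc13, so the limit is wide for Muc13. The genes were chosen on this difference in the same libraries, so the lasting sign is a description only. With single libraries left out they ran from 2.27 to 2.68 for Cd34, 2.54 to 3.21 for Muc13, 2.04 to 2.35 for Adgrg3, 2.41 to 2.71 for Afap1l1 and 1.92 to 2.16 for Rab44. Without LAIR1KO replicates 4 and 5 together, Cd34 was at 2.12 and Muc13 at 2.52. The number of genes called in the whole table, 914, was less stable. It was 1379 with scaling by library totals, which raised the median log2 fold change of all genes to 0.13 and the share of calls that are higher from 75.3% to 90.1%. It was 1516 with DESeq2 (66.4% higher), 376 without LAIR1KO replicates 4 and 5 (62.8% higher), 338 without WT replicates 1 and 4, and 535 to 1170 with single libraries left out, the largest drops being to 585 without WT replicate 3, 535 without LAIR1KO replicate 4 and 594 without LAIR1KO replicate 5. The cause of these shifts was not tested beyond the loss of libraries. With the replicate number as a block it was 600, but same-numbered libraries correlated at -0.0775 to 0.0466 over all genes tested. Replicate 3 was the lowest library of each genotype for Cd34, Adgrg3, Afap1l1 and Rab44. Under the block the log2 fold changes were 2.47 ± 0.18 (SE) for Cd34, 3.115 ± 0.425 for Muc13 and 2.20 ± 0.13 for Adgrg3. They were 2.51 ± 0.20 for Afap1l1 and 2.02 ± 0.14 for Rab44, and each SE was smaller than without the block. A replicate effect shared by these genes was not tested. Under the block the eosinophil, T and NK cell and megakaryocyte lists had 0 calls, erythroid markers 2 lower, and adhesion receptors 2 higher.

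Of the list genes, 63 were called, and 44 to 88 under the alternatives. Of 55 named genes outside the 5, 29 kept their call or lack of one under all 20 alternatives. The genes that changed sign had not passed the threshold: Csf3r (0.0807 by library totals, -0.154 to 0.0223 with single libraries left out), Ighm (0.0864 by library totals, -0.117 to 0.0299 with single libraries left out, 0.078 without LAIR1KO replicates 4 and 5, 0.067 without WT replicates 1 and 4), Terf2 (0.0382 by library totals), Pdgfrb (-0.046 to 0.207 with single libraries left out, -0.0663 without LAIR1KO replicates 4 and 5, -0.0858 without WT replicates 1 and 4) and Krt7 (0.0848 without LAIR1KO replicates 4 and 5, 0.151 without WT replicates 1 and 4). The median of the classical, B cell and epithelial marker lists, near 0, became positive with scaling by library totals. The r of Muc13 with Afap1l1 was -0.0287 without LAIR1KO replicates 4 and 5. That of Adgrg3 with Afap1l1 was -0.12 without the 2 farthest libraries, a step chosen after seeing the data.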

Other observations

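Further marker lists bear on the makeup of the libraries that carry the 5 genes. The counts below stand beside 5.11% called higher and 1.68% called lower among all genes tested. Megakaryocyte and platelet markers summed to 9.97 to 172.4 CPM in WT and 3.65 to 13.9 CPM in LAIR1KO, and 1 of 3 tested was called lower (edgeR). Eosinophil markers summed to 3.24 to 9.06 CPM in WT and 8.22 to 113.9 CPM in LAIR1KO, and 1 of 3 tested was called higher, a call (Prg2) that limma voom did not make (adjusted p = 0.153) and that was lost without WT replicates 1 and 4. Of 9 tested plasmacytoid and conventional dendritic cell markers 4 were called lower and 1 higher, with 2 lower and 0 higher called when WT replicates 1 and 4, or LAIR1KO replicates 4 and 5, were dropped. Of 2 tested T and NK cell markers 1 (Nkg7) was called higher, and the call was lost without WT replicate 1, WT replicate 3, LAIR1KO replicate 5, LAIR1KO replicates 4 and 5, or WT replicates 1 and 4 (adjusted p up to 0.131). Nkg7 is also counted among the 11 genes called higher on the primary granule and myeloid precursor list. The other 9 T and NK cell markers were not abundant enough to test. Of 9 tested B cell markers 0 passed in edgeR, with 1 at an unadjusted p under 0.05 and 0 called by DESeq2 or limma voom. Stromal markers summed to 20.4 to 51.0 CPM in WT and 17.5 to 30.3 CPM in LAIR1KO, and of 3 tested 0 passed in edgeR, with 1 at an unadjusted p under 0.05, 1 called lower by DESeq2 and 0 called by limma voom. The part of these cells in the Cd34, Muc13, Adgrg3, Afap1l1 and Rab44 levels was not tested.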
